A study of Mus musculus with 6 samples.

Results

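Testis RNA from 6 C57BL/6 mice was examined for 4 genes of expanded families, Btbd35f5, Btbd35f8, Glipr1l3 and Or2ag2b, which were taken by name from the 196 genes the authors deposited. The mice were 6 weeks old when obtained, were acclimated for 10 days, and received either normal saline or 7.5 mg/kg/d of Nano-Sb2O3, antimony trioxide particles of 50 nm, by intranasal instillation for 16 days, with 5 mice a group, of which 3 were sequenced. The libraries con_1 to con_3 form the group CON and the libraries n1_4, n3_3 and n3_6 form the group T, as in the mean columns of the deposited table, and they are called CON 1 to 3 and T 1 to 3 here. The library names and the sample titles conflict, because the CON libraries carry titles of high-dose mice and the T libraries carry titles of control mice. Each difference below is therefore given between T and CON libraries, and which of them was exposed depends on which label is right.

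Every deposited gene had been listed by the authors for a difference between these same groups, so a separation of T from CON was a condition of being in the table. The p-values below cover the spread between these mice, are adjusted over the listed genes alone and take no account of that listing. Levels are in TPM, a unit corrected for the length of the gene and the size of the library, so values of different genes can be set side by side. Over the whole table, 129 genes were lower and 67 were higher in T by the difference of mean log2(TPM + 1), and the median difference was -0.54. The listed genes summed to between 880 and 1776 TPM per library. No marker of spermatogonia, spermatocytes, spermatids, Sertoli cells, Leydig cells, macrophages or epididymis from the lists used here was among the 196 genes, so the cells of the testis could not be checked against their markers, and markers outside the table were not analysed here. In whole testis RNA, fewer cells of a type and less RNA per cell cannot be told apart.

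The mouse X chromosome carries many gene families in near-identical copies, a number of which are transcribed in germ cells of the testis. Btbd35f genes belong to one of them, and they encode proteins with a BTB domain, a fold through which proteins pair and through which many bind ubiquitin ligases. RefSeq gives Btbd35f5 the synonyms Gclh and Gmcl1l, after the germ cell-less genes. Glipr1l3 belongs to the CAP superfamily of secreted and membrane-bound proteins, together with the cysteine-rich secretory proteins of sperm and epididymis and with Glipr1l1, a protein of the sperm surface. Or2ag2b encodes an odorant receptor, a G protein-coupled receptor of the olfactory epithelium, and transcripts of some odorant receptors are also found in testis.

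The GENCODE annotation of GRCm39 holds 29 Btbd35f genes, all protein-coding and all on chromosome X, and 5 of them are in the table. Btbd35f5 (ENSMUSG00000118409) lies at chrX:32411401-32413308 and Btbd35f8 (ENSMUSG00000118438) at chrX:33814112-33816040, both on the plus strand. Each has 1 exon and a coding sequence of 1494 bases. Their transcripts differed at 6 of 1908 aligned bases, an identity of 99.7%, and shared an unbroken identical run of 1135 bases. By the share of differing bases, the closest annotated relatives of Btbd35f5 were Btbd35f10 and Btbd35f11, each with 4 of 1908, and that of Btbd35f8 was Btbd35f6, with 3 of 1497.

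A read of 150 bases, the length sequenced, could be assigned to either gene only where its sequence occurs in no other copy. For Btbd35f5, 91.5% of the 1759 windows of 150 bases in the transcript were present in a transcript of another gene, and 31 other genes shared at least 1 of them, including all 28 other Btbd35f genes. For Btbd35f8 the share was 91.6% of 1780 windows, again with 31 other genes. In each transcript the remaining 150 windows formed a single run, and the bases common to that whole run came down to 1 base. In Btbd35f5 that base is number 773 of the transcript, at position 32412173 of chromosome X, and in Btbd35f8 it is number 442, at position 33814553. Both lie in coding sequence. The stretches around these 2 bases are shown because they hold the sequence that sets each gene apart. The first pair is centred on the base particular to Btbd35f5, from chrX:32412143-32412203, beside the same stretch of Btbd35f8 from chrX:33814875-33814935. In the first line the capital marks the central base, and in the second line capitals mark every base that differs from the first.
Btbd35f5: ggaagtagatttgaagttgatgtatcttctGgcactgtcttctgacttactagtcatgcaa
Btbd35f8: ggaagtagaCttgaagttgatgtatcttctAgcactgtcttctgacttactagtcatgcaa
The second pair is centred on the base particular to Btbd35f8, from chrX:33814523-33814583, beside Btbd35f5 from chrX:32411791-32411851, with capitals used in the same way.
Btbd35f8: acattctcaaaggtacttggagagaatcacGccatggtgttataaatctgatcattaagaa
Btbd35f5: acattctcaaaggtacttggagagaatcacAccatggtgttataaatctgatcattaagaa
A fragment read from both ends can cover more than 1 read, and at 300 bases, the fragment length in the sample labels, 81.4% of the Btbd35f5 windows and 81.6% of the Btbd35f8 windows still occurred in another gene.

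Glipr1l3 and Or2ag2b differ from the Btbd35f genes in this respect. None of the 756 windows of 150 bases in the Glipr1l3 transcript and none of the 1295 in the Or2ag2b transcript occurred in a transcript of another gene, and none of their windows within exons occurred at a second place in the genome. At 50 bases, 9.0% of the Glipr1l3 windows occurred in Glipr1l1, whose coding sequence was 91.7% identical over 708 aligned bases. For Or2ag2b, 1.2% of the 50-base windows occurred in 3 other Or2ag genes, and its closest relative in coding sequence was Or2ag2, with 86.5% identity over 947 aligned bases. The canonical transcripts of Glipr1l3 and Or2ag2b thus consist of sequence found once among annotated sense-strand transcripts at the read length. Their other transcripts, and any overlap of their exons with transcripts of the opposite strand, were not examined. The division of reads among the Btbd35f copies, in contrast, depends on the counting program, which the methods and the sample labels name differently.

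**Figure D1:**
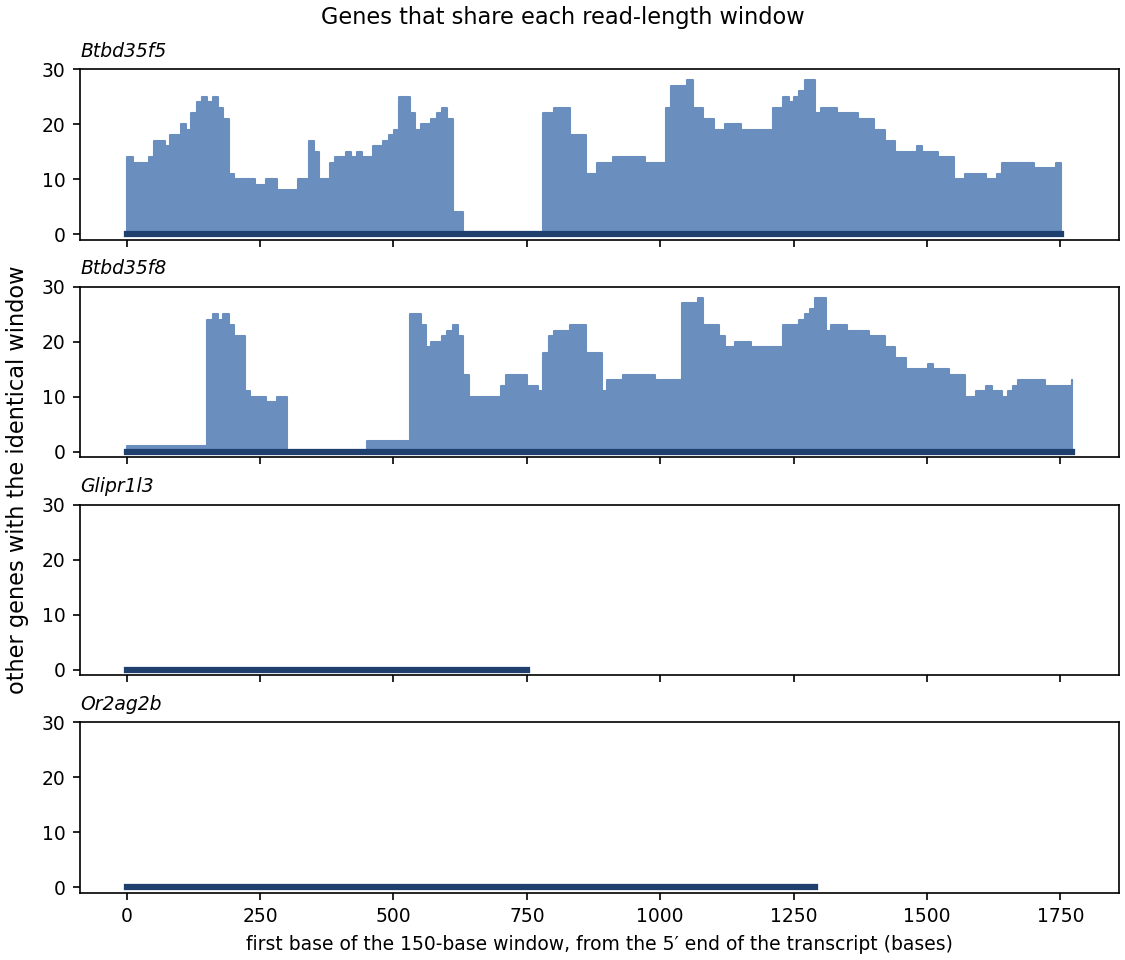
Number of other genes whose transcripts hold the identical 150-base window (y axis), by the first base of the window along the canonical transcript (x axis, bases), for the 4 genes, with the dark line marking the windows examined. Btbd35f5 and Btbd35f8 each have a single gap of 150 windows at 0, while Glipr1l3 and Or2ag2b are at 0 throughout.

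Btbd35f8 was the only one of the 4 genes to pass the test. It was measured at 1.39, 1.95 and 1.19 TPM in CON 1, 2 and 3, and at 0.26 and 0.08 TPM in T 1 and T 2. In T 3 it was listed at 0. Every T library was below every CON library. The means were 1.51 ± 0.394 TPM in CON and 0.113 ± 0.133 TPM in T (SD, n = 3 each), a ratio of CON to T of 13.3. That ratio rests on T values near 0 with an unknown counting error, and on how reads were divided among the copies. T minus CON, on mean log2(TPM + 1), came to -1.17 (SE 0.17, limma, Benjamini-Hochberg adjusted p = 0.0373 over the listed genes). The exact two-sided permutation test gave p = 0.10, the smallest that 3 libraries against 3 allow. The call was lost under 4 of the 10 alternatives. They were leaving out CON 1 (limma adjusted p = 0.0614), leaving out T 3 (limma adjusted p = 0.117), a replicate block (limma adjusted p = 0.102), and a pseudocount of 0.01, where the difference was -4.58 (limma adjusted p = 0.0724). Over the 10 alternatives the limma adjusted p ranged from 0.0266 to 0.117. Btbd35f8 was thus 1 of 4 genes called, where 8.16% of the whole list had an adjusted p under 0.05. With an absolute difference of at least 1 asked for as well, 4.08% of the list was called, 2.55% lower and 1.53% higher in T. At an unadjusted p under 0.05 with that difference, the share of the list was 25.5%.

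Btbd35f5 had the highest mean level of the listed Btbd35f genes in each group, with 7.41, 7.53 and 7.95 TPM in the CON libraries and 1.00, 4.93 and 2.93 TPM in T 1, T 2 and T 3. The CON libraries lay close together, with an SD of 3.72% of their mean, whereas the T libraries spread over most of the range below them, with T 1 lowest. The means were 7.63 ± 0.284 TPM in CON and 2.95 ± 1.97 TPM in T (SD, n = 3 each), a ratio of 2.58. The groups did not overlap, as for all 4 genes, 3 of them lower and 1 higher in T. Of the whole list, 62.8% had no overlap, 42.3% lower and 20.4% higher in T. On mean log2(TPM + 1), T minus CON came to -1.26 (SE 0.41) and did not pass the test (limma adjusted p = 0.0816, and exact two-sided permutation p = 0.10). Without T 2, the T library nearest to CON, the difference was -1.62 and passed (limma adjusted p = 0.0456). Calls over the whole list, with an absolute difference of at least 1, rose from 8 to 25 of 196 in that setting. Without T 1, the lowest library, it was -0.84 (limma adjusted p = 0.0871). Over the 11 alternatives the limma adjusted p ranged from 0.0456 to 0.276. Median-ratio scaling divides each library by the median, over genes, of the ratio of its values to the gene's geometric mean across libraries. It uses the listed genes above 0 in all libraries, so it rests on genes chosen for their difference. After it the difference was -0.63 and T 2, at 5.46, lay above CON 1 and CON 3, at 5.06 and 5.34 (exact two-sided permutation p = 0.30). That scaling moved the median difference of all listed genes by 0.31, to -0.23. The groups of Btbd35f8 still did not overlap after it, with a difference of -0.87 (limma adjusted p = 0.0411). On that scale 40.8% of the list had no overlap, 15.8% lower and 25.0% higher in T. Of the list, 14.3% had an adjusted p under 0.05, and 9.69% had an absolute difference of at least 1 as well, 1.02% lower and 8.67% higher.

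**Figure D2:**
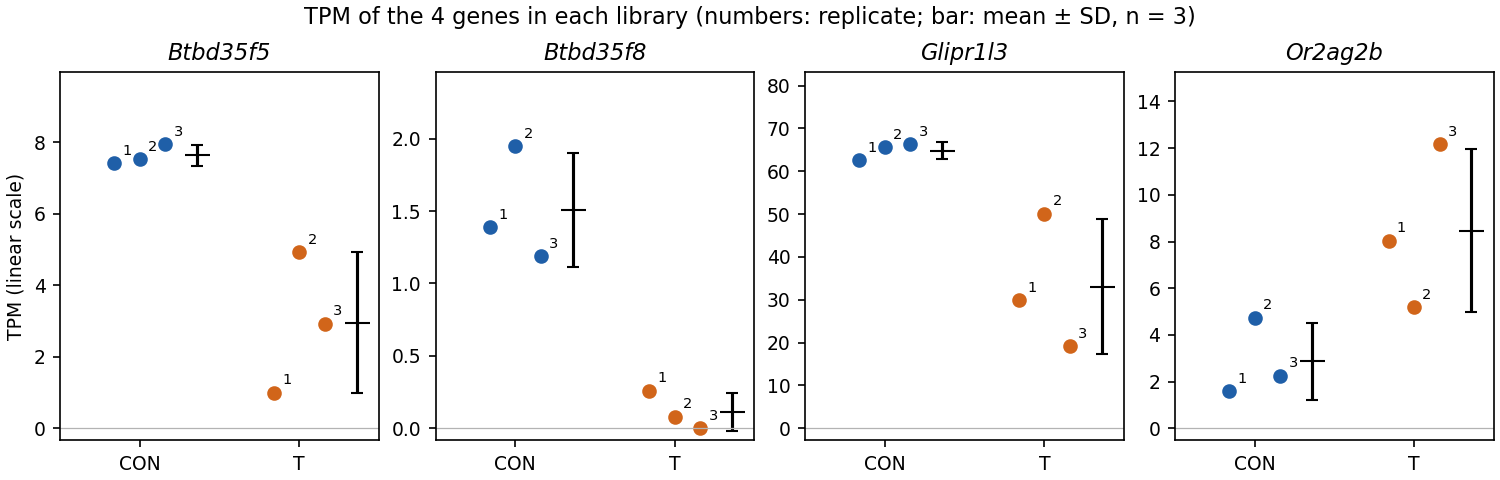
TPM (y axis, linear, a separate scale for each gene) of the 4 genes in the 3 CON and 3 T libraries, with points numbered by replicate and bars for the mean ± SD (n = 3). Btbd35f5, Btbd35f8 and Glipr1l3 lie lower in every T library than in every CON library, and Or2ag2b lies higher, at 5.20 to 12.16 TPM against 1.60 to 4.74 TPM.

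The other 3 listed copies of the family were lower in T as well. Btbd35f9 had 4.95, 6.52 and 5.67 TPM in the CON libraries and 1.49, 4.72 and 0.93 TPM in the T libraries. Btbd35f18 had 3.23, 3.34 and 2.70 TPM in the CON libraries and 0.63, 2.51 and 0.51 TPM in the T libraries. Btbd35f23 had 1.84, 1.75 and 2.37 TPM in the CON libraries and 0.40, 1.30 and 1.10 TPM in the T libraries. None of these 3 passed the test on all libraries (limma adjusted p = 0.0936, 0.0918 and 0.0906), and for each the groups overlapped after median-ratio scaling. Btbd35f9 and Btbd35f18 passed without T 2 (limma adjusted p = 0.0182 and 0.0158). Without T 2, 25 of the 196 listed genes were called with an absolute difference of at least 1, beside 8 on all libraries. Over the 11 alternatives the limma adjusted p reached 0.318 for Btbd35f9 and 0.302 for Btbd35f18. The differences of the 5 listed copies ran from -1.26 to -0.65 with a median of -1.15, and 5 of 5 were lower in T, beside 129 of all 196 listed genes. The other 24 annotated copies are not in the table and were not analysed here. Between 37.5% and 91.6% of the 150-base windows of these 5 copies recur in another gene, with the lowest share in Btbd35f23. How reads were divided among the copies is not known, so their values cannot be taken as separate measurements.

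Within T, T 2 was the highest T library for Btbd35f5, Btbd35f9, Btbd35f18 and Btbd35f23, and T 1 was the highest for Btbd35f8. Summed over the 5 copies, the level was 18.8, 21.1 and 19.9 TPM in the CON libraries and 3.78, 13.5 and 5.47 TPM in the T libraries. The sum without Btbd35f8 was 2.46 times as high in CON as in T on the ratio of means. Btbd35f8 took between 5.99% and 9.25% of the summed level in the CON libraries, and 6.88%, 0.591% and 0% in T 1, T 2 and T 3. Its share in T 1 thus lay within the range of the CON libraries, while the shares in T 2 and T 3 lay below it. Btbd35f5 took 35.7% to 39.99% of the sum in CON and 26.5% to 53.6% in T. Whether the copies differ in their change was not tested.

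**Figure D3:**
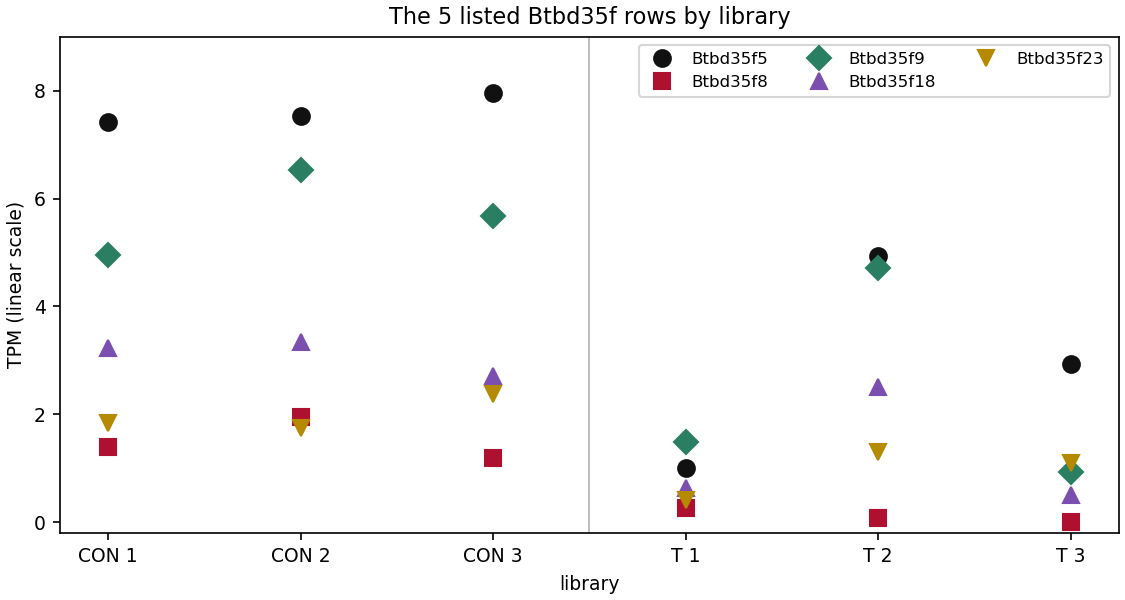
TPM (y axis, linear) of the 5 listed Btbd35f genes in each of the 6 libraries (x axis), 1 marker per gene and library. All 5 are lower in each T library than in any CON library, and T 2 lies nearest to the CON libraries for 4 of them.

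Glipr1l3 (ENSMUSG00000112611) lies on the minus strand of GRCm39 at chr10:111977648-111996234, and its canonical transcript has 5 exons and 708 coding bases. It had the highest level of the 4 genes and ranked 8 of the 196 by mean TPM. It was measured at 62.6, 65.6 and 66.3 TPM in the CON libraries and at 29.9, 50.1 and 19.1 TPM in T 1, T 2 and T 3. The CON libraries were close together, with an SD of 2.99% of their mean, and in T the SD was 47.6% of the mean, with T 2 highest as for most Btbd35f copies. CON averaged 64.8 ± 1.94 TPM and T averaged 33.0 ± 15.7 TPM (SD, n = 3 each), a ratio of 1.96, and the groups did not overlap. On mean log2(TPM + 1), T minus CON was -1.06 (SE 0.35) and did not pass the test (limma adjusted p = 0.0841, and exact two-sided permutation p = 0.10). Without T 2 it was -1.40 and passed (limma adjusted p = 0.0416), and over the 11 alternatives the limma adjusted p ranged from 0.0416 to 0.438. Leaving out T 2 raised the calls over the whole list, with an absolute difference of at least 1, from 8 to 25 of 196. After median-ratio scaling the difference was -0.29 and the groups overlapped, with 55.5 in T 2 above the highest CON library, at 50.02 (exact two-sided permutation p = 0.50). Of the 15 CAP genes in the list used here, which includes Glipr1l1, Glipr1l2 and the Crisp genes, Glipr1l3 was the 1 in the table.

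Or2ag2b (ENSMUSG00000036744) went the other way. The gene lies on the plus strand at chr7:106413336-106442546, within an array of 13 annotated Or2ag genes, and its canonical transcript has 4 exons and 948 coding bases. It had 8.04, 5.20 and 12.2 TPM in T 1, T 2 and T 3 and 1.60, 4.74 and 2.26 TPM in the CON libraries. The groups were separated by 5.20 TPM in T 2 and 4.74 TPM in CON 2, the nearest libraries of each group. The means were 8.47 ± 3.50 TPM in T and 2.87 ± 1.66 TPM in CON (SD, n = 3 each), a ratio of T to CON of 2.95. T minus CON was 1.31 on mean log2(TPM + 1) (SE 0.41) and did not pass the test (limma adjusted p = 0.0801, and exact two-sided permutation p = 0.10). Without CON 2 it was 1.63 and passed (limma adjusted p = 0.0482), and over the 11 alternatives the limma adjusted p ranged from 0.0482 to 0.180. Leaving out CON 2 raised the calls over the whole list, with an absolute difference of at least 1, from 8 to 35 of 196. After median-ratio scaling the difference was 1.89 and the groups stayed apart (exact two-sided permutation p = 0.10). That scaling lowered every CON value and raised every T value, so the groups could only move further apart. On that scale 25.0% of the list had no overlap and was higher in T. It was the 1 odorant receptor gene in the table, of 1382 annotated under such symbols. Its annotated span overlaps Or13n4, an odorant receptor gene on the opposite strand that is not in the table.

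The order of the levels differed between the groups. In the CON libraries Btbd35f5 was above Or2ag2b in each library, at 7.41 TPM or more against 4.74 TPM or less. In the T libraries Or2ag2b was above Btbd35f5, at 5.20 TPM or more against 4.93 TPM or less. Over all 6 libraries the means were 5.29 TPM for Btbd35f5 and 5.67 TPM for Or2ag2b. The 2 genes were listed for opposite differences, so this swap is no separate result. The level of Btbd35f5 also depends on how reads were divided among the copies. Glipr1l3 was highest in both groups. Btbd35f8 was lowest by its mean in both groups, but in CON its highest library, at 1.95 TPM, was above the lowest of Or2ag2b, at 1.60 TPM.

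**Figure D4:**
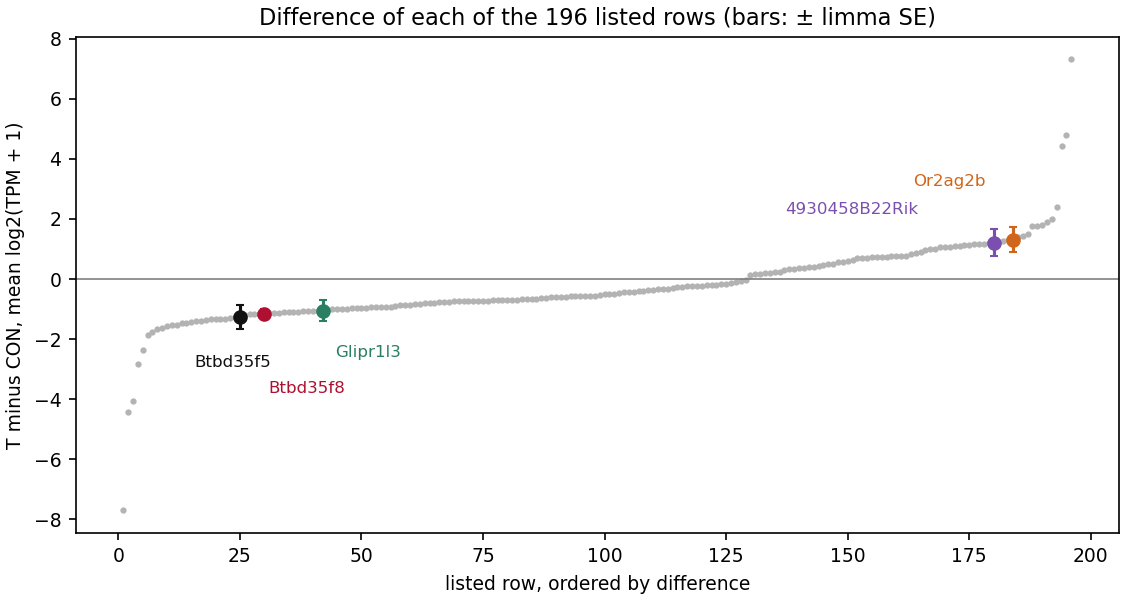
Difference of mean log2(TPM + 1), T minus CON (y axis), of each of the 196 listed genes in ascending order (x axis), with the 4 genes and 4930458B22Rik coloured and bars for ± the limma standard error. Btbd35f5, Btbd35f8 and Glipr1l3 rank 25, 30 and 42 from the lowest, and Or2ag2b ranks 13 from the highest.

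The listed gene most like Or2ag2b over the 6 libraries was also its neighbour on the chromosome. Likeness was measured as the root mean square difference of log2(TPM + 1) after each gene was centred on its own mean. 4930458B22Rik, a lncRNA gene on the minus strand at chr7:106342937-106413331, differed from Or2ag2b by 0.17 on this measure, while the median over the other listed genes was 1.08. The annotated 5′ ends of these genes face away from each other with 4 bases between them, and no other listed gene lay within 50 kb of any of the 4 genes. 4930458B22Rik had 2.32, 1.17 and 4.55 TPM in T 1, T 2 and T 3 and 0.25, 1.34 and 0.11 TPM in the CON libraries. T 3 was the highest library and CON 2 the highest CON library for both genes. For 4930458B22Rik, CON 2 was above T 2, so 8 of the 9 pairs of a T and a CON library were higher in T (exact two-sided permutation p = 0.20). T minus CON was 1.21 for this lncRNA on mean log2(TPM + 1) (limma adjusted p = 0.0945). The next most like Or2ag2b were H2-Q6 and 4933439K11Rik, both at 0.24.

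For the other genes, Glipr1l3 was most like Gm14391, Btbd35f9 and Btbd35f18, at 0.16, 0.17 and 0.18. Btbd35f5 was most like Gm5924, 4930473O22Rik and Gm35533, at 0.29, 0.30 and 0.30, and Btbd35f8 was most like Gm27004, Gm31748 and Gm28657, at 0.17, 0.22 and 0.22. The medians over the other listed genes were 0.62 for Glipr1l3, 0.75 for Btbd35f5 and 0.58 for Btbd35f8. All 6 libraries entered these comparisons, so the measure holds the difference between the groups as well as the order within them.

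The promoters are shown because 3 of the 4 genes were lower together and because Or2ag2b shares its start region with 4930458B22Rik. Each runs from 250 bases before to 50 bases after the annotated transcript start in GRCm39. Capitals mark matches, on either strand, to the cyclic AMP response element TGACGTCA, bound by the spermatid activator CREM, to GTTGCC, the half-site of the RFX factors, or to CAACNG, a site of the MYB factors. None of the matches overlaps another.
Btbd35f5, chrX:32411151-32411450, plus strand: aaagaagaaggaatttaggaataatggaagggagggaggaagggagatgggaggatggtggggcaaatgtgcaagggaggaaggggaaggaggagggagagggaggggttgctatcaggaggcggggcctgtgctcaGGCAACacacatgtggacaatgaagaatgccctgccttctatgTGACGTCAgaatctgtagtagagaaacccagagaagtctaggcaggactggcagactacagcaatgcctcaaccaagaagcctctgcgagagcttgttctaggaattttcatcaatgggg
Btbd35f8, chrX:33813862-33814161, plus strand: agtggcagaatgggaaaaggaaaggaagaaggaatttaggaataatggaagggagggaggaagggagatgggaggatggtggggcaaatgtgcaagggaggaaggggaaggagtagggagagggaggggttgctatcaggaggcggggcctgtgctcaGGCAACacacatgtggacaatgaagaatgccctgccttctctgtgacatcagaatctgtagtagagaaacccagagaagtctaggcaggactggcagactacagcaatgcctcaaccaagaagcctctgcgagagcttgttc
Glipr1l3, chr10:111996185-111996484, minus strand: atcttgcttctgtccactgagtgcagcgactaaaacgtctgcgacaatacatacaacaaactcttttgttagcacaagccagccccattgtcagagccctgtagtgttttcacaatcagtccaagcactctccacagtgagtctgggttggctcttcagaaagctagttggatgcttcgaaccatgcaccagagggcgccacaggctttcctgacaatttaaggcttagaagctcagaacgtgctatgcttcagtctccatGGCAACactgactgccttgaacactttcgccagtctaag
Or2ag2b, chr7:106413086-106413385, plus strand: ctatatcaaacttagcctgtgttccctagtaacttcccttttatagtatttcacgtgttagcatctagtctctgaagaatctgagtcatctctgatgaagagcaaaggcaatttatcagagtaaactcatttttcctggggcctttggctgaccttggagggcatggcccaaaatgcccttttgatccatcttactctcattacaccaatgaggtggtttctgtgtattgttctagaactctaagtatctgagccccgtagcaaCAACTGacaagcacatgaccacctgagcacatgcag
The half-site of the RFX factors was present once in the promoters of Btbd35f5, Btbd35f8 and Glipr1l3, and in 11.8% of the 21751 protein-coding promoters of the same length. TGACGTCA was present in the promoter of Btbd35f5, 70 bases before the start, and in 2.4% of all promoters. It was also present in the promoters of Btbd35f9 and Btbd35f18 and was not found in those of Btbd35f8 and Btbd35f23. The promoter windows of Btbd35f5 and Btbd35f8 were 98.6% identical over 279 aligned bases. Or2ag2b held 1 match to CAACNG, as did 33.2% of all promoters. The motifs were chosen after the promoter sequences were seen, and a match is a description of the sequence.

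Of 8 fat cell markers, Fabp4, Cfd and Car3 are in the table, and their summed level was 4.78 to 15.5 TPM in the CON libraries and 0.40 to 3.82 TPM in the T libraries. All 3 were without overlap and lower in T, like 42.3% of the whole list, and none passed the test (limma adjusted p = 0.0708, 0.0918 and 0.0841). T 2, the T library nearest to CON for Glipr1l3 and most Btbd35f copies, also had the highest fat marker level in T, at 3.82 TPM, and T 1 had the lowest, at 0.40 TPM. The summed Btbd35f level was also lowest in T 1, at 3.78 TPM, whereas Glipr1l3 was lowest in T 3, at 19.1 TPM. Within CON, CON 1 had the highest fat marker level, at 15.5 TPM. It also had the lowest Glipr1l3 and summed Btbd35f levels, at 62.6 and 18.8 TPM. Both of these levels varied little within CON, with SDs of 2.99% and 5.70% of their means. The defining markers Adipoq, Plin1 and Lep are not in the table. The part of these cells in the values of the 4 genes was not tested.

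**Figure D5:**
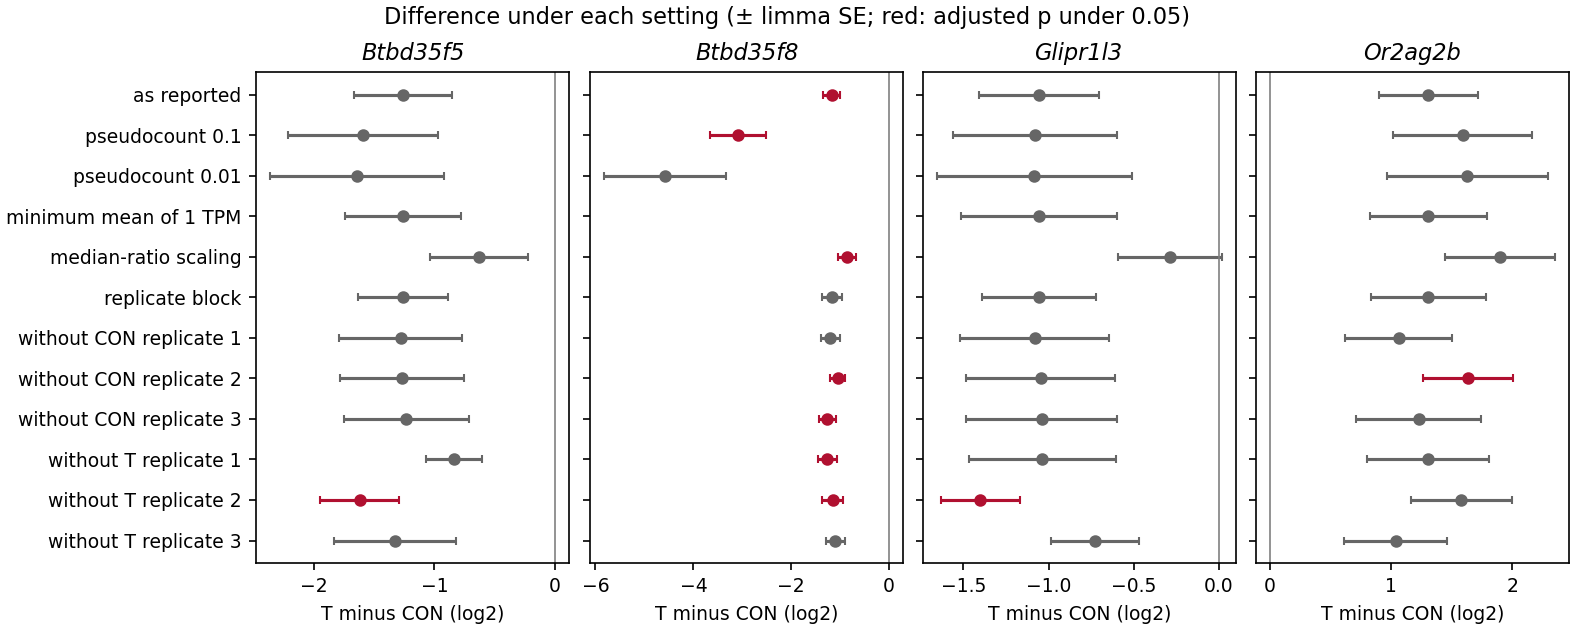
Difference of mean log2(TPM + 1), T minus CON (x axis, a separate scale for each gene), of the 4 genes as reported and under each alternative (y axis), with bars for ± the limma standard error and red for a limma adjusted p under 0.05. Each gene keeps its direction in all of these settings. Only median-ratio scaling could have reversed it, and not for Or2ag2b, whose difference that scaling could only raise. After that scaling Glipr1l3 lies nearest to 0, at -0.29.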

How the data were processed

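Testis poly(A) RNA of 6 mice was sequenced as paired reads. The deposited table holds TPM values that the authors made from reads aligned to GRCm39 with HISAT2. The methods name HTSeq and FPKM, the sample labels name RSEM, and the unit was read as TPM from the axes of the study's plots. The authors also deposited fold changes and p-values, which entered no result. They served only to see that each of the 196 genes is past 0.05 by raw p-value and past 1 by size of log2 fold change. No read counts are kept, so no counting error is given. The T and CON means in the table equal the means of the named libraries for 196 genes.

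The 4 genes and the gene lists were chosen with earlier results of these data known. Named genes were the 4, listed relatives in the family lists, and for each gene the 3 most alike over the 6 libraries. limma 3.58.1 in R 4.3.3 was run on log2(TPM + 1) over all 196 genes with Benjamini-Hochberg adjustment, after a test on simulated data. A call was an adjusted p-value under 0.05, and counts over the table also asked for an absolute difference of at least 1. Fold changes on this scale understate the change of low genes. For single genes, all 20 ways to split the libraries 3 to 3 gave an exact permutation test, two-sided. The libraries are separate mice by their titles. Windows of the canonical GENCODE vM39 transcripts were searched in all annotated transcripts on the sense strand, and exon windows of 150 bases in both strands of GRCm39, with Python 3.11.15 and numba 0.67.0. Alignments used biopython 1.88, and plots used matplotlib 3.10.9. Promoters were read from GRCm39. Alternatives were pseudocounts of 0.1 and 0.01, a minimum mean of 1 TPM, median-ratio scaling, a replicate block, each library left out, and windows of 50 and 300 bases, the last chosen after seeing the data.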

Additional observations from a re-analysis of the deposited data

How the results depend on the processing

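The differences of the 4 genes kept their direction under every alternative that was run. The groups of each gene did not overlap, so only median-ratio scaling could have reversed a direction, and only for Btbd35f5, Btbd35f8 and Glipr1l3. It divided the CON libraries by 1.312 to 1.489 and the T libraries by 0.7726 to 0.903. The difference of Or2ag2b could therefore only rise under it. The kept direction under the other alternatives, and that of Or2ag2b under this scaling, is no added support. With each library left out in turn they ranged from -1.62 to -0.84 for Btbd35f5, from -1.26 to -1.05 for Btbd35f8, from -1.40 to -0.73 for Glipr1l3 and from 1.04 to 1.63 for Or2ag2b. The call of Btbd35f8 was lost with a pseudocount of 0.01, where the difference was -4.58 (limma adjusted p = 0.0724), and a minimum mean of 1 TPM removed the gene. The number of listed genes past limma's adjusted p and the limit of 1 was 8, of which 3 were higher and 5 lower in T. It was 15 and 16 with pseudocounts of 0.1 and 0.01, 5 with a minimum mean of 1 TPM, and 50 by the unadjusted p. After median-ratio scaling it was 19, of which 17 were higher and 2 lower. With each library left out it ranged from 3 to 35, with 35 without CON 2 and 25 without T 2. The genes without overlap between the groups were 123, or 64 with the minimum mean and 80 after median-ratio scaling. The cause of these moves was not tested, apart from the fewer genes left by the minimum.

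Replicate numbers do not mark shared mice. Deviations of same-numbered libraries from their group means correlated over genes at 0.0445, -0.0255 and 0.0969, and 3 of the 6 libraries correlated best with their own number. With the replicate block, Btbd35f8 had a difference of -1.17 (limma adjusted p = 0.102) and 3 genes were called. TPM keeps no depth, so values such as 0.08 TPM carry an unknown counting error.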
